A study of Mus musculus with 24 samples.

Results

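The genes of fatty acid synthesis were followed in mammary tissue of 24 female mice, each hybridised to its own 1-colour Agilent array. They were Acly, Acaca, Fasn, Elovl6, Scd1, Scd2, Srebf1, Mlxipl, Thrsp and Pnpla3, taken by symbol from 34797 gene names on the array, and all 10 were found. Together they had 16 of the 55681 probes that are not controls: 4 for Acaca, 2 each for Acly, Pnpla3 and Mlxipl, and 1 for each of the other genes. All 16 were well above background on all 24 arrays, so no member was lost to a filter on dim probes. BALB/c and SPRET/EiJ mice had been given either a single whole-body dose of 10 cGy of X-rays (LDIR) or a sham exposure at 8 to 9 weeks of age. BALB/c tissue was collected 2, 4 and 8 weeks later and SPRET/EiJ tissue 4 weeks later, with LDIR and sham mice at each time and 3 mice in each of the 8 groups. BALB/c is a common laboratory strain, while SPRET/EiJ derives from the separate species Mus spretus. The probes were designed on the mm9 reference genome, and the effect of sequence differences between SPRET/EiJ and that reference on the signal was not tested.

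Fatty acid synthesis turns citrate from the mitochondria into long-chain fat. ATP citrate lyase (Acly) releases acetyl-CoA in the cytosol, acetyl-CoA carboxylase (Acaca) makes malonyl-CoA in the committed step, fatty acid synthase (Fasn) builds palmitate, Elovl6 lengthens it, and the stearoyl-CoA desaturases Scd1 and Scd2 place the first double bond. The transcription factors Srebf1 and Mlxipl (ChREBP) answer to insulin and to glucose, Thrsp (Spot 14) is a small protein of lipogenic tissues, and Pnpla3 is a lipid droplet protein whose gene is a target of the same factors. In the mammary gland the pathway is known from the fat pad, which is rich in adipocytes, and from the epithelium, which makes milk fat in lactation.

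The 10 genes varied together between mice. Promoter sequence is shown for Fasn, Acly, Elovl6, Thrsp and Pnpla3, and a link between sequence and level was not tested. RefSeq start sites were matched for 8 of the 10 genes, in 11 entries, and Scd1 and Scd2 had no entry. Each line gives the 250 bases before the start, 5′ to 3′. Capitals mark the letters CCAAT, of the kind bound by NF-Y, GGGCGG, of the kind bound by Sp1, CACGTG, an E-box, and TCACNCCAC, a sterol response element as bound by SREBP, each searched on both strands.
Fasn, GRCm38.p6 chr11:120824548-120824797, minus strand: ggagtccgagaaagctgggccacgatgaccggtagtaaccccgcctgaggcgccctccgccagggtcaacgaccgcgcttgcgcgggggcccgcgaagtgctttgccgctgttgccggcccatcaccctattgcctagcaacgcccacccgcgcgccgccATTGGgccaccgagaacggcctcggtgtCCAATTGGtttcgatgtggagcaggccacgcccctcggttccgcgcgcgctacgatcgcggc
Acly, GRCm38.p6 chr11:100528001-100528250, minus strand: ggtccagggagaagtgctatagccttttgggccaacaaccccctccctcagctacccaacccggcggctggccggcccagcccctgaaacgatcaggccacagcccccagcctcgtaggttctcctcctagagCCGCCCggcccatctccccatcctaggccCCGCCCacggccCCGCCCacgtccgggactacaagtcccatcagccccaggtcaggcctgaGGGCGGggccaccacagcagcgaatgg
Elovl6, GRCm38.p6 chr3:129532136-129532385, plus strand: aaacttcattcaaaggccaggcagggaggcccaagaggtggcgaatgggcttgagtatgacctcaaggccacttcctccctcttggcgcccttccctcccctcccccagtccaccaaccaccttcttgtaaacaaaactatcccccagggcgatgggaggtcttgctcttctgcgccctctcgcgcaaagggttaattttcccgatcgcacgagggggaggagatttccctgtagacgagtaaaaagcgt
Thrsp, GRCm38.p6 chr7:97417551-97417800, minus strand: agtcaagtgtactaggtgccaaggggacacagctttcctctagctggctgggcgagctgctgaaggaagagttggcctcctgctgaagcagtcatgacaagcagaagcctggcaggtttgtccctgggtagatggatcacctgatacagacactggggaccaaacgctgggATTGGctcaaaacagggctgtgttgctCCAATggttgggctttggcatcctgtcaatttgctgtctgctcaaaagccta
Pnpla3, GRCm38.p6 chr15:84167566-84167815, plus strand: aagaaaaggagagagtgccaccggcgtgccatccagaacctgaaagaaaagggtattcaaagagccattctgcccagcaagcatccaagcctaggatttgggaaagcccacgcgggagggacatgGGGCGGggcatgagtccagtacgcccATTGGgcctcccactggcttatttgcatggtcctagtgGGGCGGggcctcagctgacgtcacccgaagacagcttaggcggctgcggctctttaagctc
Fasn held 3 matches to CCAAT, at 85, 57 and 54 bases from the start, of which the last pair overlap on opposite strands. Thrsp held 2, at 74 and 47 bases, and Pnpla3 held 1, at 94 bases. CCAAT was found before the starts of 5 of the 8 genes, against 33.8% of all 32851 promoters of the same length. Here and below a gene counted when any of its entries matched, whereas the percentages count single promoters. The 2 are not like for like. Acly held 4 matches to GGGCGG, which occurred in 4 of the 8 genes and in 32.7% of all promoters. CACGTG (6.02% of all promoters) and TCACNCCAC (1.05%) were each found before 1 gene, Mlxipl, at different entries. Elovl6 and Acaca held none of the 4 motifs in this window, and starts other than the matched entries were not searched. A match describes letters only, and binding was not measured.

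A level is given as the log2 intensity of a probe minus the 75th percentile of its array, so that 0 is the 75th percentile and 1 unit is a 2-fold difference. Levels of different probes are not on a common scale and were not set against each other. For a gene with several probes the brightest over the 24 arrays is given, and the others beside it. In bulk tissue fewer cells of a type and less RNA per cell cannot be told apart. The labels name separate mice, and no other detail of independence is given.

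Of the 24 arrays, 3 stood apart from the rest: BALB/c sham 8 weeks replicate A, BALB/c LDIR 8 weeks replicate B and SPRET/EiJ LDIR 4 weeks replicate A. Their highest correlation with any other array was 0.9599 to 0.9629, against 0.9841 to 0.9887 for the other 21. The lymphocyte markers (Cd3e, Cd3d, Cd4, Cd8a, Cd79a, Ms4a1, Ptprc) summed to 6.70 to 7.06 on the log2 scale on these 3 arrays and to 3.91 to 4.97 on the other 21. The white adipocyte markers (Adipoq, Plin1, Fabp4, Cidec, Lep, Retn, Cfd, Lipe, Pparg, Cebpa) summed to 10.32 to 10.50 on the 3 and to 10.91 to 11.98 on the other 21. All 10 white adipocyte markers and all 10 mammary epithelium markers were well above background on all 24 arrays.

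At its brightest probe each of the 10 genes had its highest group mean in SPRET/EiJ sham mice. Its lowest 2 group means were in the BALB/c groups of 8 weeks. Without the 3 arrays that stood apart this held for 3 genes in SPRET/EiJ sham mice and for 7 at 8 weeks, with a mean Fasn level of 6.62 in both SPRET/EiJ groups and of 4.83 (sham) and 4.19 (LDIR) at 8 weeks. Some other probes of Acaca, Pnpla3 and Mlxipl had their highest mean in a BALB/c group. For Fasn, the level in the 3 SPRET/EiJ sham mice was 6.68, 6.52 and 6.65. It was 4.71, 6.59 and 6.66 in SPRET/EiJ LDIR mice. BALB/c sham mice gave 4.92, 5.05 and 5.93 after 2 weeks, then 5.85, 6.16 and 4.98 (4 weeks) and 3.14, 4.45 and 5.22 (8 weeks). The SPRET/EiJ sham mice lay within 0.16 of each other and above every BALB/c mouse, and the 8-week mice were spread over 2.08. For BALB/c LDIR mice the values were 5.06, 5.78 and 6.37 after 2 weeks, 5.17, 4.99 and 5.27 after 4 and 5.06, 2.42 and 3.33 after 8. Ordered by mean, the groups ran SPRET/EiJ sham (6.62 ± 0.09, SD, n = 3), SPRET/EiJ LDIR (5.99 ± 1.11), BALB/c LDIR 2 weeks (5.74 ± 0.66), BALB/c sham 4 weeks (5.67 ± 0.61), BALB/c sham 2 weeks (5.30 ± 0.55), BALB/c LDIR 4 weeks (5.14 ± 0.14), BALB/c sham 8 weeks (4.27 ± 1.05) and BALB/c LDIR 8 weeks (3.60 ± 1.34). Each group overlapped its neighbour in this order. Differences between times were not tested, since the 2-week arrays lay on slide 1 and the 8-week arrays on slides 2 and 3.

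The other genes followed a like course over the groups. Acaca read 8.25, 7.93 and 7.94 in SPRET/EiJ sham mice and 6.22, 8.12 and 8.23 in SPRET/EiJ LDIR mice, close to BALB/c sham mice of 4 weeks at 8.05, 8.41 and 7.21. In BALB/c sham mice of 8 weeks it read 5.50, 6.73 and 7.21, and in the LDIR mice of that time 7.16, 4.85 and 5.92. The sham and LDIR mice of 8 weeks overlapped, with the lowest mouse in the LDIR group. Thrsp went from 8.24 ± 0.32 (SD, n = 3) in BALB/c sham mice at 2 weeks to 8.29 ± 0.55 at 4 weeks and 7.27 ± 0.80 at 8 weeks, while SPRET/EiJ sham mice had 8.62 ± 0.13. Srebf1 had 1.86 ± 0.31, 1.85 ± 0.61 and 0.57 ± 0.75 in the same BALB/c groups, and its 8-week sham mice (-0.28, 1.13 and 0.87) lay below all 2-week and 4-week sham mice. Mlxipl had 4.74 ± 0.26, 4.53 ± 0.66 and 3.53 ± 0.83, with overlap between 4 and 8 weeks. Its second probe was steadier, between 2.55 and 3.80 on the 18 BALB/c arrays.

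**Figure D1:**
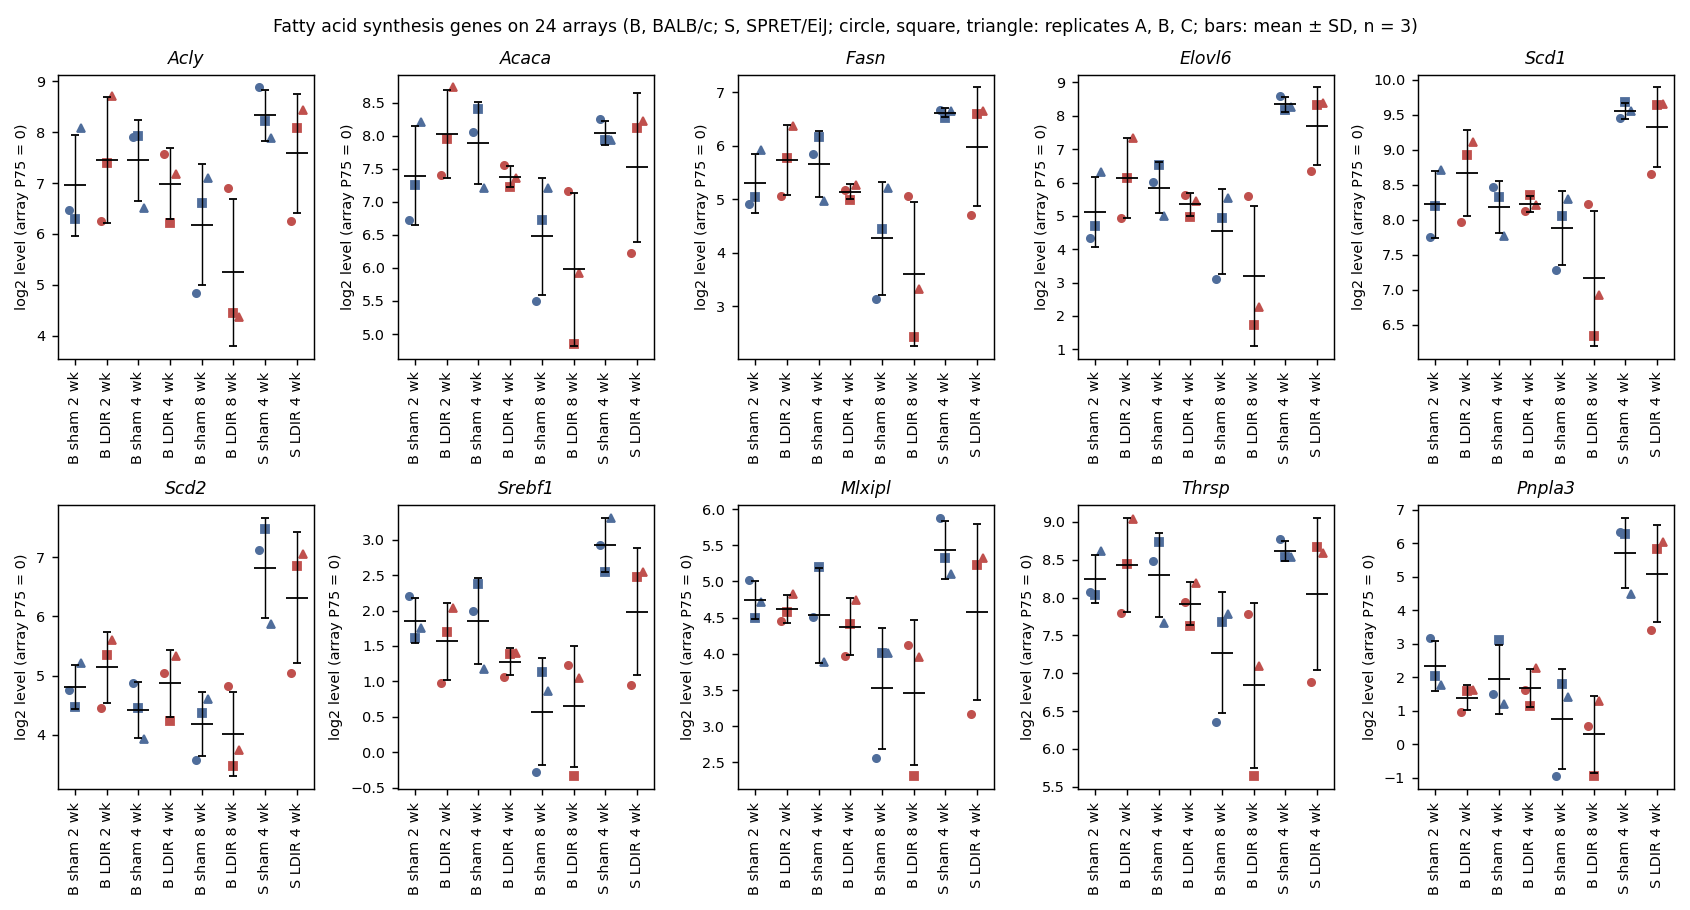
Level (log2, array 75th percentile = 0) of the brightest probe of each gene on the 24 arrays, 1 panel per gene, by group (blue, sham; red, LDIR; bars, mean ± SD of 3 mice). By mean, both SPRET/EiJ groups sit highest for Acly, Fasn, Elovl6, Scd1, Scd2, Srebf1 and Pnpla3. Replicate A of sham and replicate B of LDIR sit low in the BALB/c 8-week groups.

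The strain comparison asks how tissue of the 2 strains differs, and it was made within sham and within LDIR mice at 4 weeks. Among sham mice the brightest probe of all 10 genes was lower in BALB/c than in SPRET/EiJ, with a median difference of -1.01, against -0.08 over all probes. A fit of all 24 arrays with the slide as a block gave -3.61. In that fit slide 3, which held all SPRET/EiJ arrays, was tied to the other slides only through the BALB/c LDIR mice of 8 weeks, of which replicate A lay on slide 2 and B and C on slide 3. Past the study's thresholds (unadjusted p under 0.001 and over 1.5-fold) were 2 of the 16 member probes, Elovl6 and Scd1, both lower in BALB/c, where 8.89% of all probes passed and 3.53% passed as lower in BALB/c. These 2 calls depended on the test: with the methods' t-test 0 passed, and with the replicate letter as a block or with all 24 arrays the 2 that passed were Scd2 and Pnpla3. By limma's adjusted p under 0.05 there were 4, with Scd2 and Pnpla3 added, where 18.8% of all probes passed. The values of the 2 strains did not overlap for 6 of the 10 genes, as for 38% of all probes.

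Elovl6, the elongase that acts on palmitate, was 8.59, 8.17 and 8.28 in SPRET/EiJ sham mice and 6.01, 6.53 and 5.01 in BALB/c sham mice. Every BALB/c mouse lay below every SPRET/EiJ mouse. The difference was -2.49 ± 0.39 (SE; 95% confidence interval -3.44 to -1.54), 5.63-fold, with a limma p of 0.000585 and an adjusted p of 0.00786. The call at the study's thresholds was lost on leaving out BALB/c replicate A or any 1 of the 3 SPRET/EiJ arrays, with differences of -2.83 to -2.07 and limma adjusted p of 0.00843 to 0.0324 over the 6 arrays left out in turn. The probe lies at mm9 chr3:129341248-129341307 on the plus strand.

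Scd1, the main desaturase of fat, was 9.45, 9.68 and 9.55 in SPRET/EiJ sham mice and 8.47, 8.33 and 7.77 in BALB/c sham mice, again without overlap. The log2 difference was -1.37 ± 0.23 (interval -1.93 to -0.82), 2.59-fold, with a limma adjusted p of 0.0095. Its call at the study's thresholds was lost with each of the 6 arrays left out, with differences of -1.51 to -1.16 and limma adjusted p of 0.0171 to 0.0341. A neighbour on the same chromosome, Scd2, was 7.13, 7.47 and 5.87 in SPRET/EiJ and 4.88, 4.46 and 3.93 in BALB/c sham mice. The Scd2 difference was -2.40 ± 0.47 (interval -3.53 to -1.27), 5.28-fold, with a limma adjusted p of 0.0165, past the adjusted threshold and short of the study's. The Scd1 probe lies at mm9 chr19:44469387-44469446 on the minus strand and the Scd2 probe at chr19:44381024-44381083 on the plus strand. The Scd genes are close in sequence, and signal shared between their probes was not tested.

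Pnpla3 had the largest difference of the 10 genes, -3.77 ± 0.69 (interval -5.45 to -2.10), 13.7-fold, with a limma p of 0.00132 and an adjusted p of 0.0135. Its level was 6.35, 6.29 and 4.50 in SPRET/EiJ sham mice and 1.49, 3.13 and 1.20 in BALB/c sham mice. The second Pnpla3 probe did not show this: it differed by 0.09 ± 0.57, with a limma adjusted p of 0.928. It read 3.43, 2.27 and 1.19 in SPRET/EiJ sham mice and 2.82, 2.40 and 1.94 in BALB/c sham mice, which overlap. Both probes lie on the plus strand, at mm9 chr15:84019823-84019882 and chr15:84016440-84016499, and no annotation of that build was at hand to place them in exons. The Pnpla3 strain difference is thus that of 1 of 2 probes.

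The earlier enzymes did not pass either threshold. Fasn differed by -0.95 ± 0.32 (interval -1.72 to -0.18, limma adjusted p = 0.0915), without overlap. Acly differed by -0.88 ± 0.46 at its brightest probe and by -1.47 ± 0.49 at the other, with limma adjusted p of 0.249 and 0.0916. Acaca differed by -0.15 ± 0.33 (interval -0.94 to 0.64), and its other 3 probes by -0.51, -0.15 and -0.39. Srebf1 differed by -1.07 ± 0.36 (limma adjusted p = 0.0921), with 2.93, 2.54 and 3.31 in SPRET/EiJ and 2.00, 2.38 and 1.18 in BALB/c sham mice, which did not overlap. Mlxipl differed by -0.91 ± 0.38 at its brightest probe and by 0.29 ± 0.17 at the other, so that its probes disagreed in sign and neither passed. Thrsp differed by -0.32 ± 0.30 (interval -1.04 to 0.39).

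In LDIR mice the same comparison gave a median difference of -0.78, with 0 of 16 probes past the study's thresholds, where 5.67% of all probes passed. At an unadjusted p under 0.05 there were 4 genes, where 25.1% of all probes passed, and 2 passed limma's adjusted p under 0.05, where 11.1% of all probes did. These were Pnpla3, at -3.42 ± 0.72 (adjusted p = 0.03), and Elovl6, at -2.34 ± 0.57 (adjusted p = 0.0478). The strains did not overlap for 3 genes, Elovl6, Scd1 and Pnpla3, as for 33.5% of all probes. Elovl6 was 5.64, 4.97 and 5.45 in BALB/c LDIR mice and 6.35, 8.32 and 8.40 in SPRET/EiJ LDIR mice, of which the first is the array that stood apart. Without that array 4 probes passed the study's thresholds, those of Fasn (-1.48), Scd1 (-1.43), Elovl6 (-3.00) and Pnpla3 (-4.26), all lower in BALB/c, where 7.9% of all probes passed. No slide held 4-week arrays of both strains. The BALB/c arrays of 4 weeks lay on slides 1 and 2 (sham) or on slide 2 (LDIR). All SPRET/EiJ arrays lay on slide 3, so that slide and strain cannot be told apart in either treatment.

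Marker lists also differed between the strains at 4 weeks. The median difference of the 10 mammary epithelium markers was 1.52 in sham and 1.66 in LDIR mice, that of the 7 milk proteins -2.55 and 0.87, that of the 5 macrophage markers -0.76 and -0.31 and that of the 6 skeletal muscle markers 1.46 and 0.14. For the 8 brown adipocyte markers it was -0.25 and -1.24, for the 10 white adipocyte markers 0.04 and 0.47, for the 7 lymphocyte markers -0.03 and -1.69 and for the 4 endothelium markers 0.30 and 0.16. At most 2 markers of a list passed the study's thresholds, and the part of these lists in the members' difference was not tested.

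**Figure D2:**
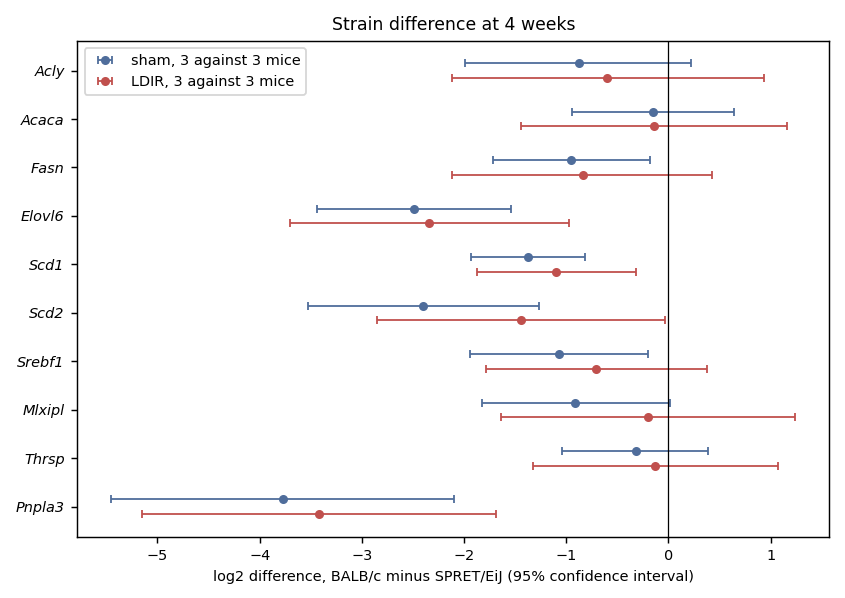
Log2 difference between strains at 4 weeks (BALB/c minus SPRET/EiJ; points, limma estimates; bars, 95% confidence intervals; 3 against 3 mice) for sham (blue) and LDIR (red). All points lie below 0, and the intervals of Elovl6, Scd1, Scd2 and Pnpla3 exclude 0 in both treatments.

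Among 39 other genes of the pathway, all on the array, the median difference between strains was -0.68 in sham and -0.42 in LDIR mice. Of these genes, Elovl3 is also in the brown adipocyte list, and Lipe and Pparg are in the white adipocyte list. In sham mice 1 of 39 passed the study's thresholds, Scd3, another desaturase, which was lower in BALB/c (2.10 against 4.69, a difference of -2.60, limma adjusted p = 0.00283). In LDIR mice 2 of 39 passed, both lower in BALB/c. Elovl3, an elongase of very long chains that is high in brown fat, differed by -4.96 (limma adjusted p = 0.0155), with 2 of the 3 BALB/c arrays above background. Acot11, a thioesterase, differed by -1.74 (limma adjusted p = 0.0115). At limma's adjusted p under 0.05 the counts were 8 of 39 in sham and 2 of 39 in LDIR mice, against the 18.8% and 11.1% of all probes given above.

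The comparison of LDIR with sham mice asks how the tissue differed weeks after 10 cGy. At 2 weeks in BALB/c, 1 of the 16 probes passed the study's thresholds (unadjusted p under 0.05 and over 1.5-fold), where 3.05% of all probes did. This was a probe of Acaca, the committed enzyme, at mm9 chr11:84211638-84211697, which is not the brightest of its gene. It read 1.17, 1.48 and 1.98 in LDIR mice and -0.56, 0.14 and 1.03 in sham mice, without overlap. The change was 1.34 ± 0.43, with a limma p of 0.0193 and an adjusted p of 0.869. With the methods' t-test, and with all 24 arrays in the fit, 0 of the 16 probes passed, where 1.63% and 1.38% of all probes did. The other 3 Acaca probes changed by 0.63, 0.64 and 0.84, all upward, with none past the thresholds. A pair of these overlap by all but 1 base on chromosome 11 and count as 1 measurement. Left out in turn, LDIR replicate C took the count to 0 (3.78% of all probes) and sham replicate C raised it to 5 (4.35%).

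Of the 10 genes 7 were higher and 3 lower after LDIR at 2 weeks, with a median change of 0.38, against -0.02 over all probes. Their smallest limma adjusted p was 0.869. Over the whole array 0 probes had a limma adjusted p under 0.05, here and in every other comparison of LDIR with sham mice. The lack of adjusted calls is thus not particular to these genes. By the brightest probe Elovl6 changed most among the enzymes, by 1.03 ± 0.74 (interval -0.77 to 2.83). It went from 4.33, 4.69 and 6.31 in sham to 4.94, 6.15 and 7.33 in LDIR mice. The groups overlapped, and the difference was of the size of the SD within them (1.05 and 1.20). Pnpla3 went the other way, by -0.94 ± 0.40 (limma adjusted p = 0.869), from 3.18, 2.04 and 1.77 to 0.96, 1.59 and 1.62, without overlap. Its second probe changed by 0.55 ± 0.27, so that the probes of Pnpla3 disagreed in sign here too. Fasn changed by 0.44 ± 0.41, Acly by 0.50 ± 0.74, Scd1 by 0.44 ± 0.38, Scd2 by 0.32 ± 0.35 and Thrsp by 0.19 ± 0.34, while Srebf1 gave -0.29 ± 0.31 and Mlxipl -0.12 ± 0.20. Of the markers, 2 of 8 brown adipocyte (list median 0.11) and 1 of 10 mammary epithelium markers (-0.26) passed the thresholds as lower. As higher there was 1 of 7 lymphocyte markers (0.11).

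At 4 weeks in BALB/c 0 of 16 probes passed, where 4.83% of all probes did, and 0 had an unadjusted limma p under 0.05, where 6.17% of all probes did. The median change was -0.42. Fasn gave -0.52 ± 0.32, Acaca -0.51 ± 0.32, Srebf1 -0.58 ± 0.32 and Elovl6 -0.50 ± 0.41, and the smallest limma adjusted p was 0.775. For Fasn the LDIR mice lay between 4.99 and 5.27, inside the sham mice, which lay between 4.98 and 6.16. Sham replicate C was the lowest of the 3 sham mice for all 10 genes. Without it 6 probes of 5 genes passed, where 10.8% of all probes did. All were lower after LDIR: Fasn, Elovl6, Srebf1, Thrsp and 2 of Acaca. Those 2 are the Acaca pair that overlaps by all but 1 base, and they count as 1 measurement. Sham replicate C is also the only sham array of this time on slide 2, which held the 3 LDIR arrays. Within slide 2 the median change was 0.40 rather than -0.42, and 8 genes changed sign, Fasn to 0.16 and Elovl6 to 0.34. Among the other 39 genes 5 passed, all lower after LDIR. They included Elovl3 (-2.52), the mitochondrial citrate carrier Slc25a1 (-0.95) and Acot11 (-0.90), each with a limma adjusted p of 0.687 or 0.775. Elovl3 was above background on 2 of the 3 LDIR arrays, so the size of its change is uncertain. Markers moved at this time too: 3 of 5 macrophage markers (list median 0.72) and 2 of 7 milk proteins (1.64) were past the thresholds as higher after LDIR. As lower there were 3 of 8 brown adipocyte (-0.83), 1 of 10 white adipocyte (-0.32) and 2 of 10 mammary epithelium markers (-0.08). Elovl3 is counted both among these brown adipocyte markers and among the 39 genes. Of the 7 milk proteins, 2 were well above background on all 3 sham arrays and 3 on all 3 LDIR arrays. The part of these markers in the members' changes was not tested.

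At 8 weeks in BALB/c 0 of 16 probes passed, where 1.92% of all probes did. The median change was -0.48, against -0.14 over all probes, and the smallest unadjusted limma p among the brightest probes was 0.246. For 7 of the 10 genes the widest range within a group was at this time, and for Scd2, Srebf1 and Mlxipl it was in SPRET/EiJ LDIR mice. Elovl6 read 3.12, 4.93 and 5.55 in sham and 5.59, 1.73 and 2.26 in LDIR mice, a range of 3.86 or 14.5-fold among the LDIR mice. Its change was -1.34 ± 1.17 (interval -4.21 to 1.53). Acly read 4.84, 6.60 and 7.10 in sham and 6.91, 4.45 and 4.37 in LDIR mice, a change of -0.94 ± 0.91. In LDIR mice replicate A was the highest of the 3 for 9 of the 10 genes, all but Pnpla3. Without that array 3 probes passed, lower after LDIR, those of Scd1 (-1.25), Elovl6 (-2.54) and 1 of Acly, where 3.01% of all probes passed. Without the 2 arrays that stood apart the median change was -0.51 and 0 probes passed, where 4.35% of all probes did. Within slide 2, which held the 3 sham arrays and LDIR replicate A alone, the median change was 0.65.

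In SPRET/EiJ at 4 weeks 0 of 16 probes passed, where 2.21% of all probes did, and the smallest limma adjusted p was 0.972. All 10 genes were lower after LDIR by 0.24 to 0.94 on the log2 scale, with a median of -0.62. Replicate A of the LDIR mice, an array that stood apart, was the lowest of the 3 for all 10 genes, as with Scd2 (5.04, 6.85 and 7.05 in LDIR, 7.13, 7.47 and 5.87 in sham mice) and Mlxipl (3.17, 5.23 and 5.33 in LDIR, 5.88, 5.33 and 5.10 in sham mice). Without it the change of Fasn was 0.01, that of Elovl6 0.01, that of Thrsp 0.01, that of Scd1 0.09, that of Acaca and Scd2 0.13 and that of Pnpla3 0.22, while Srebf1 gave -0.42, Mlxipl -0.16 and Acly -0.08. With all 3 mice Srebf1 had the largest change of the 10, -0.94 ± 0.48 (limma adjusted p = 0.972). The lymphocyte markers had a median change of 1.37 here, the white adipocyte markers of -0.60 and the milk proteins of -2.47. For brown adipocyte markers it was -0.69, for mammary epithelium -0.26, for endothelium -0.18, for macrophage -0.05 and for skeletal muscle markers 0.32. Of the 6 skeletal muscle markers 1 passed the thresholds as higher and 1 as lower, and of each other list 0 passed. The part of these lists was not tested. In either SPRET/EiJ group 2 of the 7 milk proteins were well above background on all 3 arrays.

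**Figure D3:**
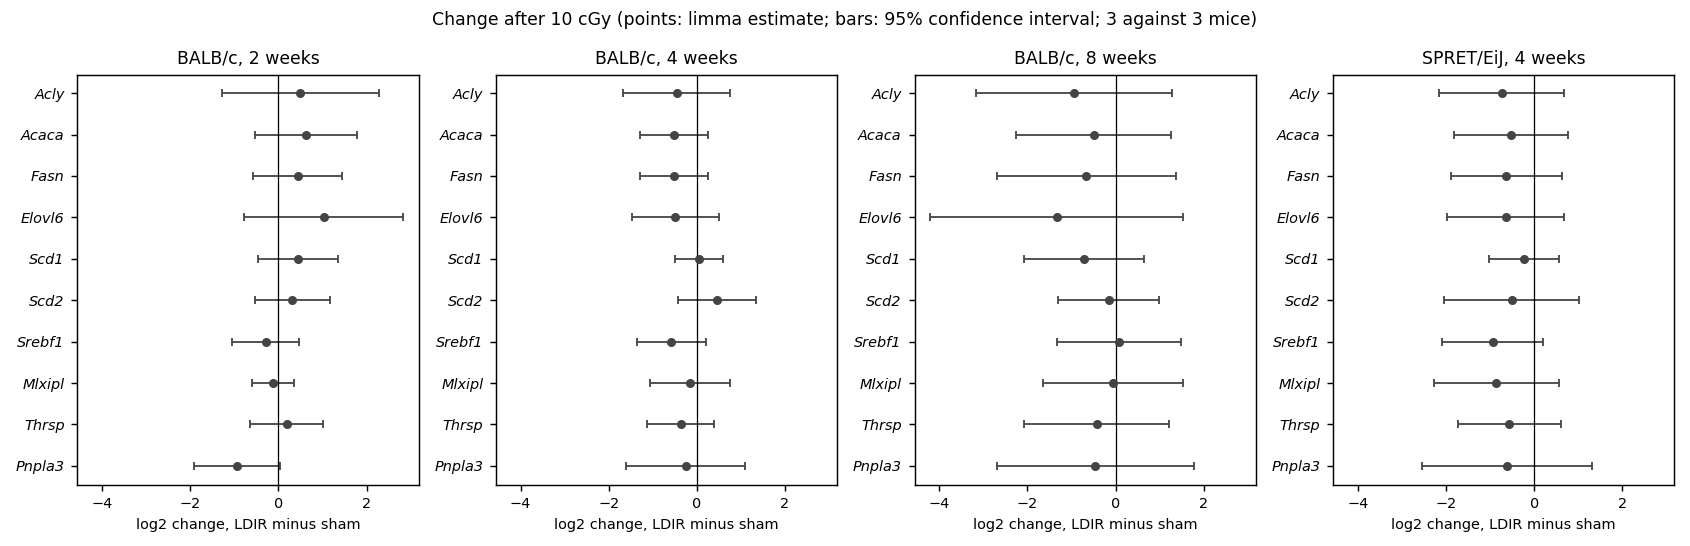
Log2 change after 10 cGy (LDIR minus sham; points, limma estimates; bars, 95% confidence intervals; 3 against 3 mice) for the brightest probe of each gene in the 4 comparisons. All intervals include 0, and they are widest at 8 weeks for 9 of the 10 genes, all but Scd2.

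Whether the LDIR effect differed between strains or times was tested as an interaction. Between strains at 4 weeks 0 of 16 probes passed, where 3.59% of all probes did, and the differences of the 10 changes lay between 0.01 and 0.96 with a smallest limma p of 0.259. Between 8 and 4 weeks in BALB/c 0 of 16 passed, where 4.35% of all probes did, with differences from -0.84 to 0.65 and a smallest limma p of 0.257. For Fasn the difference was 0.11 ± 0.66 (SE) between strains and -0.14 ± 0.95 between times, and for Elovl6 0.16 ± 0.75 and -0.84 ± 1.33.

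The levels of the 10 genes ran together from mouse to mouse. Over the 18 BALB/c arrays the 45 pairs had a Pearson r of 0.54 to 0.99, with a median of 0.85, and a Spearman rho of 0.29 to 0.95, with a median of 0.74. These are descriptions, and the part of array scaling and of tissue makeup in them was not tested. With the group means removed, over all 24 arrays, the median r was 0.81. Without the 3 arrays that stood apart it was 0.63 over 21 arrays, from -0.11 to 0.97. Fasn and Acaca were the closest pair (r = 0.99), followed by Fasn with Elovl6, Fasn with Thrsp and Acly with Elovl6 (each 0.97). Pnpla3 stood farthest from the enzymes (0.54 with Scd1, 0.56 with Elovl6) and nearer to Mlxipl (0.90) and Srebf1 (0.88), and those factors were close to each other (0.95). Without the 2 BALB/c arrays that stood apart the median r was 0.72 over 16 arrays, and the lowest 0.02. With Fasn, r was then 0.97 for Acaca, 0.95 for Elovl6, 0.62 for Srebf1 and Mlxipl and 0.24 for Pnpla3.

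**Figure D4:**
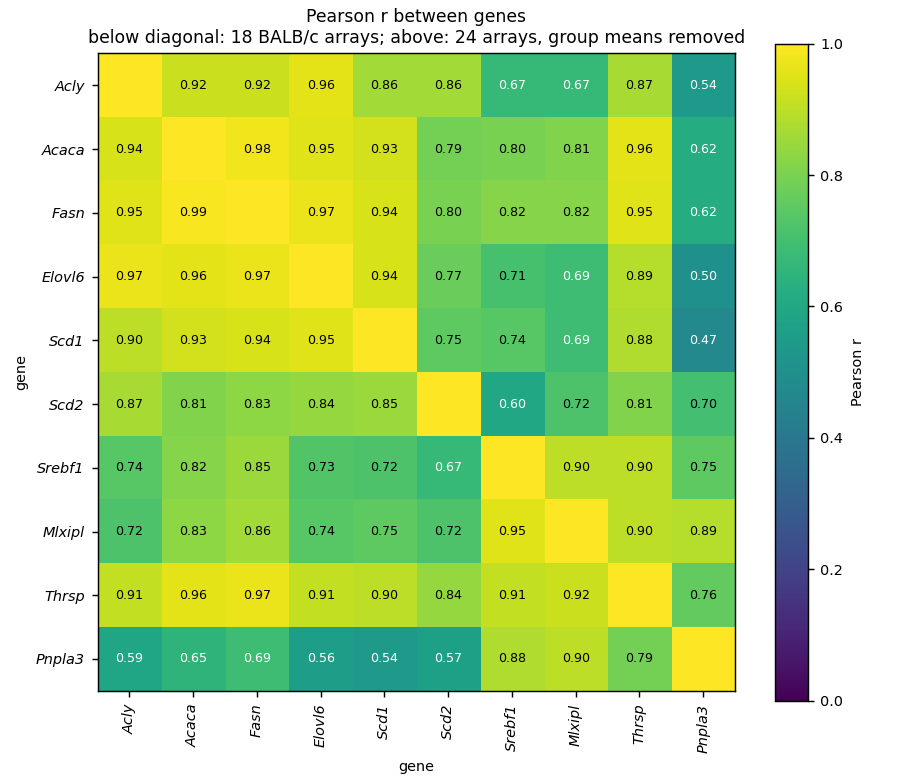
Pearson r between the 10 genes, as colour and number: below the diagonal over the 18 BALB/c arrays, above it over 24 arrays after removal of group means. The enzymes and Thrsp form the bright block, and Pnpla3 is brightest with Srebf1, Mlxipl and Thrsp.

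The spread behind this was wide. The SD within groups, pooled over the 8 groups, was 1.15 for Elovl6, 1.05 for Acly and Pnpla3, 0.81 for Fasn and 0.54 for Scd1, against a median of 0.31 for the 29395 probes well above background on all arrays. Elovl6 was at the 98.9th percentile of those probes and Scd1, the lowest of the 10, at the 85.8th. Without the 3 arrays that stood apart the SD was 0.98 for Elovl6, 0.93 for Acly, 0.72 for Pnpla3, 0.56 for Fasn, 0.43 for Scd1 and 0.36 for Mlxipl, then the lowest, against a median of 0.24 over 29323 probes. Of 24094 candidate probes, the 5 genes whose level ran most like Fasn over the 18 BALB/c arrays were Gbe1 (glycogen branching enzyme, r = 0.99), Me1 (malic enzyme, a source of NADPH for the pathway, 0.98), Pygl (glycogen phosphorylase, 0.97), Brp44l (a mitochondrial pyruvate carrier subunit, 0.97) and Slc2a5 (a fructose transporter, 0.97). Leaving out the 2 arrays with the most extreme Fasn, r was 0.94 to 0.97 for these 5.

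Fasn, and not the other members, was correlated with the marker lists. Over the 18 BALB/c arrays it had r = 0.84 with the summed white adipocyte markers, 0.89 with the brown adipocyte and 0.75 with the endothelium markers. For mammary epithelium r was -0.05, for skeletal muscle -0.2 and for macrophage markers -0.39. For lymphocyte markers it was -0.75 and for milk proteins -0.81. Without the 2 BALB/c arrays that stood apart the lymphocyte value was -0.12 and that of the mammary epithelium markers -0.52. The other values were then 0.62 for white adipocyte, 0.74 for brown adipocyte and 0.66 for endothelium markers. They were -0.09 for macrophage and -0.34 for skeletal muscle markers, and -0.52 for milk proteins. On the 3 arrays that stood apart the members were the lowest of their group for 10 of 10 genes in BALB/c sham 8 weeks, 9 of 10 in BALB/c LDIR 8 weeks and 10 of 10 in SPRET/EiJ LDIR mice. BALB/c LDIR 8 weeks replicate C had the next lowest members among BALB/c arrays, a median of -1.37 relative to each gene's mean. Its lymphocyte sum of 4.52 and white adipocyte sum of 11.33 lay within the range of the other arrays. Its skeletal muscle sum of 9.4 was the highest of the 24 arrays. The part of tissue makeup in the members' levels was not tested.

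**Figure D5:**
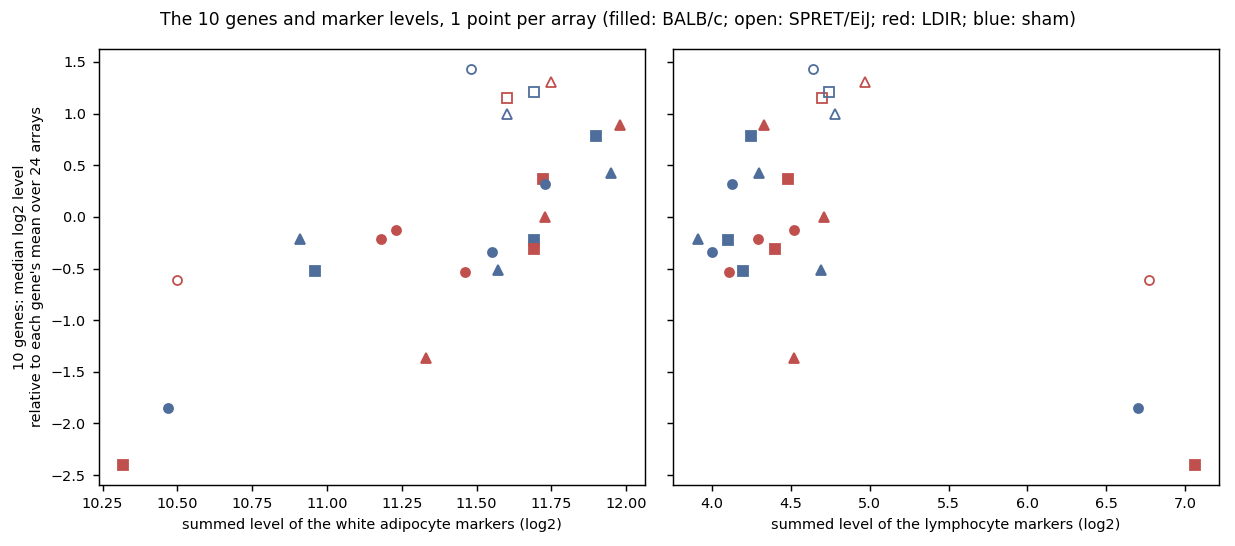
Median level of the 10 genes on each array, relative to each gene's mean over the 24 arrays (log2), against the summed level (log2) of white adipocyte markers (left) and lymphocyte markers (right); filled, BALB/c, open, SPRET/EiJ. The 3 arrays with a lymphocyte sum of 6.70 to 7.06 also have the lowest adipocyte sums, and 1 further BALB/c array is low at -1.37.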

How the data were processed

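Mammary RNA of 24 mice was measured on 1-colour Agilent arrays, 8 to a slide on 3 slides, and samples were grouped by the strain, treatment and time in their labels. The authors deposited scanner intensity values, from which the scanner software had taken the background. The authors' log2 values, scaled to the 75th percentile, served as an alternative, and 99.812% of them lay within 0.01 of the centred values used here. Outlier spots (3777 over 24 arrays) were left out, and 0 of the 59305 spots that are not controls were saturated. Spots of a probe were averaged on the log2 scale and the array's 75th percentile subtracted. The share of probes well above background ran from 57.1% to 72.6% per array, and 3 arrays per group limit the precision.

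The comparisons used R 4.3.3 with limma 3.58.1 over all probes, on the 6 arrays of a comparison (12 for interactions), with Benjamini-Hochberg adjustment over all probes. The test was checked on simulated data. The thresholds of the methods were applied: an unadjusted p below 0.001 for strains and below 0.05 for LDIR, with a change over 1.5-fold. Members were named by the brightest probe, and other pathway genes by the largest change past the thresholds. The members and lists were chosen with earlier results of these data known. 1 gene of the lymphocyte list is not reported here and was left out of its sums and medians. As alternatives, the background was corrected by normexp (offset 50), arrays were quantile normalized, and outlier spots were kept. Dim probes were also left out, and the t-test of the methods, blocks for replicate letter or slide, and a fit of all 24 arrays were tried, with each array left out in turn. Leaving out both 8-week arrays that stood apart, and descriptions of level, spread and correlation without the 3 such arrays, were added after seeing the data. Promoters are RefSeq sequences of GRCm38.p6, while probe coordinates are those of the files (mm9).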

Additional observations from a re-analysis of the deposited data

How the results depend on the processing

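The direction of the strain difference in sham mice held for 10 of 10 genes under every alternative, apart from Acaca with 1 array left out (-0.41 to 0.19). The count of member probes past the thresholds there, 2 (8.89% of all probes), was 4 with normexp (10%) and with detected probes only (14.8%). It was 0 with the methods' t-test (4.91%) and 0 to 2 with 1 array left out (5.77% to 6.71%). Scd1 did not pass with any of the 6 arrays left out. In LDIR mice the count, 0 (5.67% of all probes), was 2 with normexp (5.3%) and 1 with all 24 arrays (10.9%). It was 2 with all 24 arrays and a slide block (3.09%), and 0 to 4 with 1 array left out (2.88% to 7.9%). With all 24 arrays and a slide block the median difference was -3.61 in sham and -2.67 in LDIR mice. Thrsp in LDIR mice turned to 0.08 with quantile normalization, and with 1 array left out Acaca spanned -0.79 to 0.21, Thrsp -0.71 to 0.18 and Mlxipl -0.90 to 0.18.

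After LDIR at 2 weeks the count, 1 (3.05% of all probes), was 4 with normexp (0.506%) and 2 with detected probes only (2.36%). It was 0 with the methods' t-test (1.63%), with all 24 arrays (1.38%) and with these and a slide block (1.42%). With 1 array left out it was 0 to 5 (3.17% to 4.35%). With the replicate letter as a block it was 6 (3.73%), from 3 genes, with the overlapping pair of Acaca probes counted as 2. The letters do not pair the mice by the labels, their deviations correlated at -0.031 to 0.14 at 2 weeks, and 2 of 6 mice there correlated best with their own letter. In the other comparisons the block left the count as it was, though in sham mice the 2 strain calls were then Scd2 and Pnpla3. Left-out arrays gave Acly -0.14 to 1.1, Srebf1 -0.52 to 0.01, Thrsp -0.12 to 0.50 and Mlxipl -0.25 to 0.02.

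At 4 weeks in BALB/c the count was 0 to 6 with 1 array left out, where 3.95% to 10.8% of all probes passed. A slide block, with 6 or 24 arrays, gave a median change of 0.40, with Fasn at 0.16, Acaca 0.17, Acly 0.47, Elovl6 0.34, Srebf1 0.10, Thrsp 0.25, Pnpla3 0.48 and Mlxipl 0.49. Scd1 was -0.05 with normexp. Left-out arrays gave Scd1 -0.17 to 0.18, Pnpla3 -0.63 to 0.34 and Mlxipl -0.48 to 0.18. At 8 weeks the count was 0 to 3 with 1 array left out, where 1.14% to 3.37% of all probes passed. The slide block gave a median of 0.65, with Fasn at 0.79, Acaca 0.68, Acly 0.73, Scd1 0.35, Scd2 0.64, Elovl6 1.06, Thrsp 0.51 and Mlxipl 0.59. Left-out arrays gave Acaca -1.10 to 0.06, Scd2 -0.57 to 0.10, Srebf1 -0.35 to 0.57, Thrsp -0.90 to 0.17, Pnpla3 -1.31 to 0.16 and Mlxipl -0.54 to 0.51, and Mlxipl was 0.03 without both arrays that stood apart. These slide fits set the LDIR mice against 1 sham mouse at 4 weeks, and the sham mice against 1 LDIR mouse at 8 weeks. In SPRET/EiJ the count was 1 with normexp, where 0.242% of all probes passed. There left-out arrays gave Fasn -0.97 to 0.01, Acaca -0.87 to 0.13, Scd1 -0.41 to 0.09, Scd2 -0.99 to 0.13, Elovl6 -1.01 to 0.01, Thrsp -0.87 to 0.01 and Pnpla3 -1.22 to 0.22. The interaction of time and LDIR had 0 to 1 probes. The cause of these shifts was not tested. A slide block could not be fitted at 2 weeks or in SPRET/EiJ, where 1 slide held all arrays, or between strains in the 6 arrays of either treatment, which share no slide. A random slide block in sham mice, which cannot separate slide from strain, gave 3 probes (Scd1, Elovl6 and Pnpla3), where 10.7% of all probes passed. With 3 mice a group, the intervals at 8 weeks allow changes of over 1.5-fold in either direction for each of the 10 genes.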
